A study of Arabidopsis thaliana with 8 samples.

Results

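The MYB genes of *Arabidopsis thaliana* encode one of the largest families of plant transcription factors, and here *MYB55* (At4g01680) was followed across WT and *yucca* seedlings. No probe set had a single gene symbol of MYB followed by a number in the platform annotation used here, so the family name matched 0 of the 13513 probe sets assigned to just 1 gene there. *MYB55* was added to the family by name through the study's tables, and its probe set is the 1 member described, of 22746 probe sets tested. The tables list transcripts raised or lowered by brassinolide (BL) or by auxin, and *MYB55* stands among those lowered by BL in WT seedlings on these same arrays, so the fall of *MYB55* in WT was part of how it came to be named and is given as a description. The other MYB genes that the tables name, 9 in all, serve as a comparison. Other MYB genes could not be picked out among the unnamed probe sets and are not analysed here.

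Proteins with a pair of MYB repeats bind DNA through those repeats and differ in the rest of the protein, which decides whether they activate or repress their targets. They control phenylpropanoid and glucosinolate synthesis, cuticle and cell wall formation, and the fate of epidermal cells. *MYB55* is grouped by sequence with *MYB50*, *MYB61* and *MYB86*, and *MYB61* is known for effects on stomatal aperture and on carbon supply to xylem and seed coat. Brassinosteroids (BRs) are steroid hormones that act through the receptor BRI1 and the transcription factors BES1 and BZR1, and BL is the most active of them.

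RNA of whole seedlings was measured on 8 Affymetrix ATH1 arrays in 4 groups of 2, namely mock- and BR-treated WT and mock- and BR-treated *yucca* seedlings. All seedlings were light-grown and 10 d old by the labels. WT was the Columbia accession (Col-0), and *yucca* is a mutant that overproduces auxin because a flavin monooxygenase gene is highly expressed. BR groups were immersed in medium with 1 μM BL and mock groups in the medium alone, in each case for 2.5 h. The study counts 2 biological replicates per group, which limits the precision of every value. Each p-value measures spread between such replicates. Unless stated, limma pooled that spread over the 4 groups and drew it towards the typical spread of all probe sets. Each array gave every probe set an rma intensity on the linear scale, in arbitrary units. The median intensity of all probe sets was 86.8 to 90.1 on the WT arrays and 44.7 to 46.4 on the *yucca* arrays (each genotype was taken as normalized on its own), so levels were compared between genotypes only after a joint normalization. In bulk RNA of seedlings, fewer cells with a transcript and less transcript per cell cannot be told apart. Of 13 tissue markers, 6 had a probe set named here. They were *RCA* (9260 to 14800) and *GLK1* (69.2 to 262) of green tissue, the root hair genes *COBL9* (37.2 to 151), *EXPA7* (35.8 to 185) and *PRP3* (52.2 to 940), and the root aquaporin gene *PIP2;4* (91.3 to 1110). After BR, *GLK1* was called lower in WT (log2 fold change −0.71) and no other of the 6 was called in either genotype. In *yucca* *GLK1* was at −0.57 and not called, and the difference of its responses, 0.13, was not called either.

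*MYB55* was strongly lowered by BR in WT seedlings. The 2 WT mock arrays read 158 and 144 for it, whereas the 2 WT BR arrays read 28.7 and 23.9. Every mock value lay above every BR value, and the gap was far wider than the difference between replicates. The WT mean went from 151 ± 10.2 in the mock group to 26.3 ± 3.38 in the BR group (SD, n = 2 each). This gave a log2 fold change of −2.52 (standard error 0.109), or 5.74-fold lower. It was the 6th lowest log2 fold change of the 22746 probe sets tested in WT. In this comparison 0.945% of all probe sets were called lower and 1.21% higher. On the WT BR arrays *MYB55* was brighter than 32.5% and 29.6% of the probe sets, compared with 61.2% and 59.0% on the mock arrays. With 16 added to each intensity, which tempers changes between dim values, the log2 fold change was −1.98.

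The tables listed the gene by its fall in WT, and the *yucca* arrays measured the BR response on separate seedlings. The spread in this test was pooled over all 8 arrays, the WT arrays included. *MYB55* read 149 and 147 on the 2 *yucca* mock arrays, and 17.9 and 17.7 on the 2 *yucca* BR arrays. Both pairs of replicates were nearly equal, and the groups did not overlap. The *yucca* mean went from 148 ± 1.15 to 17.8 ± 0.139 (SD, n = 2 each). The log2 fold change was −3.05 (standard error 0.109, adjusted p = 2.52e-06 from limma with Benjamini-Hochberg adjustment over all probe sets), or 8.3-fold lower, with a 95% interval of −3.30 to −2.81. Among the 22746 probe sets this was the 4th lowest log2 fold change. Fitted on the *yucca* arrays alone, *MYB55* had an adjusted p of 0.000579 from limma. Of all probe sets, 1.66% were called lower and 1.76% higher in *yucca*. On the *yucca* BR arrays *MYB55* ranked above 33.9% and 33.1% of the probe sets, against 74.3% and 74.8% on the *yucca* mock arrays. *MYB55* thus fell to a similar rank on the BR arrays of both genotypes. Whether these dim BR readings lay at background in either genotype was not tested. With 16 added to each intensity the log2 fold change in *yucca* was −2.28.

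**Figure D1:**
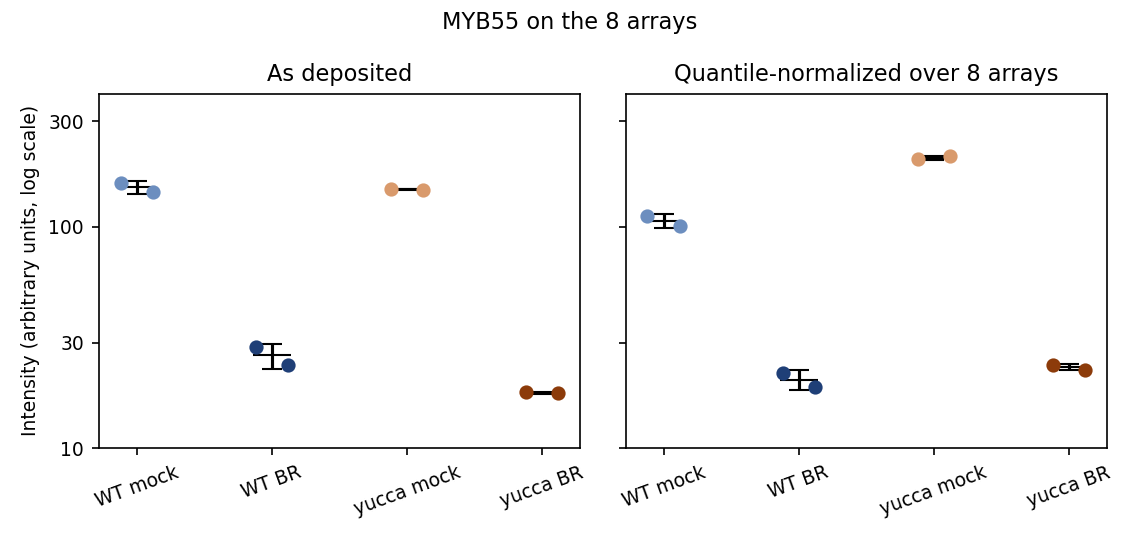
Intensity of *MYB55* (arbitrary units, logarithmic axis) on each of the 8 arrays, as deposited on the left and after quantile normalization over all 8 arrays on the right. Points are single arrays, and dashes with bars are means ± SD of 2 arrays. In each genotype both BR points lie far below both mock points.

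**Figure D2:**
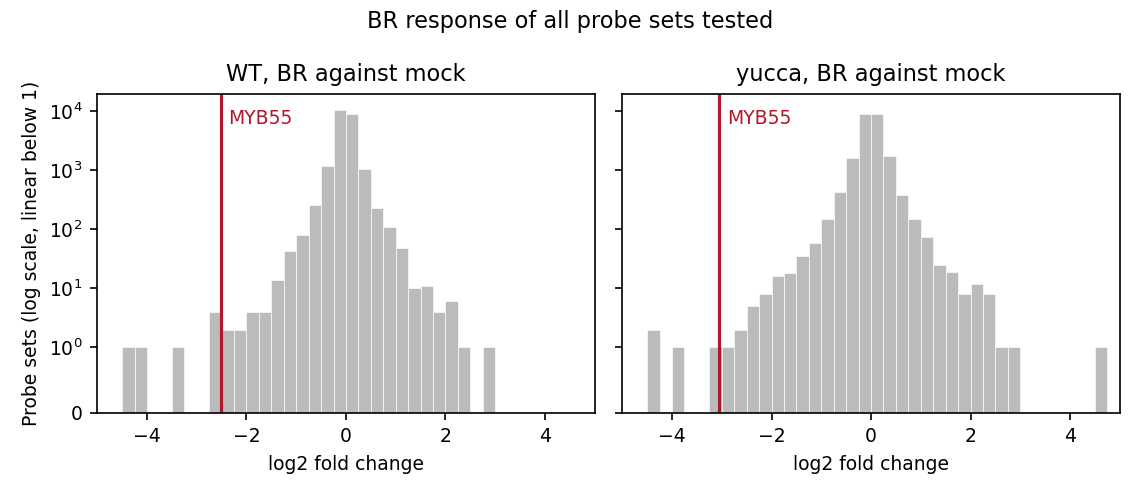
Number of probe sets (logarithmic axis, linear below 1) by log2 fold change of BR against mock, in WT on the left and *yucca* on the right, over all 22746 probe sets. The line marks *MYB55*, which lies at −2.52 in WT and at −3.05 in *yucca*, in the far left tail of both.

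The difference between the BR responses of *MYB55* in *yucca* and WT did not pass the test. The log2 fold change in *yucca* minus that in WT was −0.53 (standard error 0.154, 95% interval −0.88 to −0.18, adjusted p = 0.417 from limma). Of all probe sets, 0.0264% were called in this comparison. The interval describes *MYB55* alone, and the adjusted p takes account of all probe sets. This difference includes the WT response through which the gene was named. It was −0.30 with 16 added to each intensity and −0.76 on values quantile-normalized over all 8 arrays, and neither passed the test.

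Levels of *MYB55* in *yucca* and WT were compared on quantile-normalized values, since the deposited values put *yucca* lower as a whole by a median of −0.869 on the log2 scale among mock arrays. On the quantile-normalized scale that median was −0.0114. For *MYB55* the WT mock arrays then read 112 and 101 and the *yucca* mock arrays 203 and 208, so that both *yucca* values lay above both WT values. The log2 fold change of *yucca* against WT was 0.95 (standard error 0.103, adjusted p = 0.00012 from limma), or 1.93-fold higher in *yucca*. In this comparison 8.55% of all probe sets were called higher and 8.81% lower, so that a call was common. The comparison shares the WT mock arrays with the contrast that named the gene. With the array medians set equal, which put the median of all probe sets at 0.113, the difference was also 0.95, and on the values as deposited it was −0.03, with no call. The higher level of *MYB55* in *yucca* is therefore relative to the other transcripts of these arrays. Among mock arrays the root markers *COBL9* and *PIP2;4* were called lower in *yucca*, at −0.81 and −2.15 on the log2 scale, and *EXPA7* and *PRP3* were at −0.82 and −2.29 with no call. Their summed quantile-normalized level, over 4 genes, was 1370 to 1600 on the WT mock arrays and 308 to 523 on the *yucca* mock arrays, and 1550 to 1700 and 416 to 637 on the BR arrays. The part of root tissue in the differences between genotypes was not tested.

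After BR treatment *MYB55* read 21.9 and 18.9 on the WT arrays and 23.7 and 22.7 on the *yucca* arrays, on the quantile-normalized scale. Both *yucca* values were again the higher ones, by a narrow margin. The log2 fold change was 0.19 (standard error 0.103, 95% interval −0.04 to 0.42, adjusted p = 0.166 from limma), which did not pass the test on this scale, while 16.9% of all probe sets were called in that comparison. It was 0.40 with the array medians set equal (adjusted p = 0.0209 from limma) and −0.56 on the values as deposited (adjusted p = 0.000843), where the median of all probe sets was −0.858. These p-values were under 0.10 but B was below 0, so neither was a call. Over all alternatives the adjusted p ran from 0.000843 to 0.649. By mean level on the quantile-normalized scale the groups ran from *yucca* mock (205 ± 3.94, SD, n = 2) over WT mock (106 ± 7.61) and *yucca* BR (23.2 ± 0.722) to WT BR (20.4 ± 2.10). The last neighbours in this order did not pass the test for a difference, and the other neighbours were apart by more than their spread.

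The closest relative of *MYB55* with a probe set named here was *MYB50* (At1g57560), and it moved the other way. *MYB61* and *MYB86* had no probe set named here. *MYB50* read 11.8 and 12.8 on the *yucca* mock arrays and 24.7 and 20.4 on the *yucca* BR arrays. Its groups did not overlap, and its log2 fold change in *yucca* was 0.87 (standard error 0.138, adjusted p = 0.00596 from limma), against −3.05 for *MYB55*. In WT *MYB50* was higher after BR by 0.94 on the log2 scale (standard error 0.138), a value through which the tables had named it. The call of *MYB50* in *yucca* ended with 16 added to each intensity (0.44), without *yucca* mock replicate 1 (0.82) and without *yucca* BR replicate 1 (0.73). The probe set of *MYB50* was dim on all arrays, below the array median everywhere, while *MYB55* lay above it on every mock array.

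None of the 9 other MYB genes named here fell as far as *MYB55* in either genotype. In *yucca*, *MYB55* had the lowest log2 fold change of the 10 genes, and the next was that of *MYBL2* (At1g71030), which encodes a repressor with a single MYB repeat that acts with BES1. *MYBL2* fell by 1.44 on the log2 scale in *yucca* (standard error 0.155, adjusted p = 0.000808 from limma). Of the 9, 2 rose after BR in *yucca* (*MYB50* and *MYB6*), 1 fell and 6 did not pass the test, while 1.76% of all probe sets were called higher and 1.66% lower. The tables had listed 8 of the 9 among transcripts changed by BL in WT. The count in *yucca* therefore describes genes picked for a BR response and not the MYB family. *MYB6* (At4g09460) is related to repressors of phenylpropanoid genes, and its log2 fold change was 0.89 (standard error 0.12, adjusted p = 0.00255). *TRY* (At5g53200), a single-repeat MYB gene of trichome patterning named by the platform annotation and not among the 9, was at 0.14 in WT and −0.02 in *yucca* and did not pass the test. *MYB30* (At3g28910), which encodes a partner of BES1, was at 0.34 in *yucca* and did not pass the test. In WT 4 of the 9 were called higher, 2 lower and 3 (*MYB34*, *MYB40* and *MYB48*) not, where 1.21% of all probe sets were called higher and 0.945% lower. The tables had picked 8 of the 9 on these arrays, not all of which were called in this fit, and their direction there is no separate evidence. These counts changed when single arrays were left out. In *yucca*, 1 gene was called higher without *yucca* mock replicate 1 or without *yucca* BR replicate 1, and 2 were called lower without WT BR replicate 1 or 2. In WT, leaving out either mock array or the BR array of replicate 1 left 1 called higher, and leaving out the other BR array left 0. The number called lower there was 1 without either mock array and 0 without the BR array of replicate 1. Without each of the 8 arrays in turn *MYB55* stayed lower after BR, with log2 fold changes of −2.65 to −2.39 in WT and −3.06 to −3.05 in *yucca*. The WT range comes from the arrays through which the gene was named and is no separate support.

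**Figure D3:**
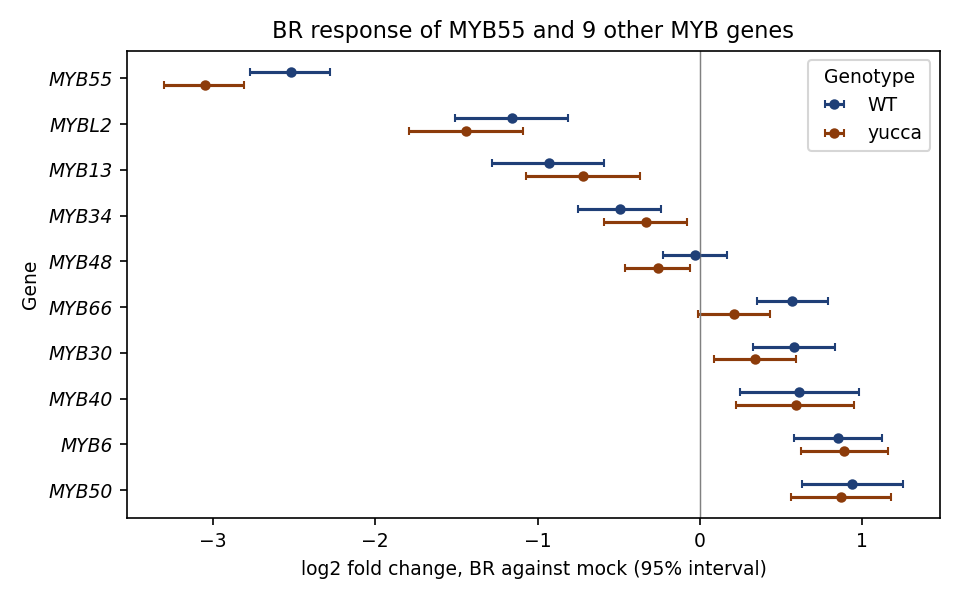
Log2 fold change of BR against mock for *MYB55* and 9 other MYB genes, in WT (blue) and *yucca* (brown). Bars are 95% intervals from limma in the joint fit of 8 arrays, with 2 arrays per group. *MYB55* lies apart from the others in both genotypes, and *MYB50* lies to the right of zero in both.

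The transcripts whose levels ran most like those of *MYB55* over the 8 arrays were sought among 13997 other probe sets with a gene name, by Pearson's r of quantile-normalized log2 values. This search was added after the values had been seen, and r over 8 arrays of 4 groups describes the shared pattern and is no test. The 5 most alike were At3g05500 (r = 0.9931), *PDS1* (r = 0.9926), *PIN3* (r = 0.9859), *ABCB1* (r = 0.9834) and At1g66890 (r = 0.9834). *PDS1* (At1g06570) encodes the hydroxyphenylpyruvate dioxygenase of plastoquinone and tocopherol synthesis, and *PIN3* and *ABCB1* encode auxin efflux carriers. These 3 had their names from the study's tables, like *MYB55* itself. Each of the 5 was lower after BR in both genotypes, which follows from choosing them by the pattern of *MYB55*. Their log2 fold changes were between −1.45 and −0.53 in WT and between −2.22 and −0.78 in *yucca*, all smaller than those of *MYB55*. Of the genes numbered nearest to *MYB55* on its chromosome, from At4g01650 to At4g01710, 3 others had a probe set named here and they did not pass the test after BR. Their log2 fold changes were between −0.39 and 0 in WT and between −0.55 and −0.05 in *yucca*, against −2.52 and −3.05 for *MYB55*.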

How the data were processed

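The authors hybridized Affymetrix ATH1 arrays, ran rma of the affy package (its version and the probe annotation are not given in the sources used here) and deposited 1 intensity per probe set and array, on the linear scale. Values equal to every digit occurred between arrays of the same genotype (19 to 86 probe sets per pair) and for 0 between genotypes, so each genotype was taken as normalized separately.

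All 22810 probe sets were used for normalization and the 64 controls were then left out. Group means of the log2 intensities were estimated by limma 3.58.1 (R 4.3.3) in a joint fit of 8 arrays and 4 groups, leaving 4 residual degrees of freedom. A call needed an adjusted p (Benjamini-Hochberg) under 0.10 and a log odds B above 0, the criteria of the study, with a prior proportion of 0.01. BR responses used the values as deposited, and *yucca* against WT used quantile normalization over 8 arrays. Probe sets were named from the platform annotation (13513 single genes) or from the study's tables (485), with symbols from RefSeq (TAIR10.1), and 8245 had no name. Named genes were the member, the other MYB genes that the study's tables name and, added after the values were seen, the 5 genes most alike and *TRY*. Members and lists were chosen with earlier results of these data known. The fit was tested on simulated data for BR against mock in WT only. No sequence is shown, because no sequence table was used here.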

Additional observations from a re-analysis of the deposited data

How the results depend on the processing

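The direction of the BR response of *MYB55* and its side of the threshold were the same under every alternative run in WT and in *yucca*. The absence of a call for the difference between genotypes held as well. In WT the gene had been named through its fall on these arrays, so its stable call there is no separate support. *MYB55* could not be tested among probe sets above the median alone, as its mean lies below. Against WT, *MYB55* in *yucca* turned from 0.95 to −0.03 among mock arrays and from 0.19 to −0.56 among BR arrays on the values as deposited, and *MYB30* among BR arrays turned to −0.10. Without single arrays the values of *MYB55* ran from −2.65 to −2.39 (BR in WT), −3.06 to −3.05 (BR in *yucca*), −0.66 to −0.40 (difference of responses), 0.88 to 1.03 (*yucca* against WT, mock) and 0.08 to 0.29 (*yucca* against WT, BR). Of the 9 other MYB genes, those called higher and lower ran from 0 to 4 and 0 to 2 for BR in WT, 1 to 3 and 1 to 2 for BR in *yucca*, and 1 to 2 and 2 to 5 for *yucca* against WT. Among probe sets above the median, 2 were called higher for BR in WT, 1 higher for BR in *yucca* and 1 lower in *yucca* against WT, with fewer of the 9 tested. With no B criterion 2 were lower for BR in *yucca*, with 16 added 1 was higher, and on the deposited values 0 were higher in *yucca* against WT.

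The labels do not say that a replicate number marks a shared batch. With a replicate block the log2 fold changes of *MYB55* stayed at −2.52, −3.05, −0.53, 0.95 and 0.19, no call of it changed, and the calls over all probe sets went from 490 to 492 (BR in WT), 778 to 763 (BR in *yucca*), 6 to 23 (difference of responses), 3949 to 3878 (mock) and 3833 to 3821 (BR arrays). Differences between replicates correlated at 0.225 between the WT groups, 0.407 between the *yucca* groups and −0.124 between the BR groups, and with *yucca* numbers exchanged, an alternative added after seeing the data, 4130 probe sets were called among BR arrays.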

Other observations

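Some of the other MYB genes differed between the genotypes in both treatments, which were measured on separate arrays but fitted with a shared spread. *MYB34*, which activates genes of tryptophan and indole glucosinolate synthesis, was lower in *yucca* by a log2 fold change of −1.73 (standard error 0.11) among mock arrays and −1.63 (standard error 0.11) among BR arrays, on quantile-normalized values, and by −2.68 and −2.52 on the values as deposited. *MYB40* was lower by −1.46 and −1.48, although it was dim in *yucca*, with mean deposited intensities of 7.64 (mock) and 11.2 (BR). With 16 added to each intensity *MYB40* was at −0.72 and −0.88, and as deposited at −2.23 and −2.26, and it was called each time. The deposited values put *yucca* lower as a whole, by a median of −0.869 (mock) and −0.858 (BR). Values as deposited carry this shift for each gene named here, so a lower call on them is no separate support. *MYB13* was higher by 1.06 and 1.26, and *MYB30* by 1.12 and 0.87. On the values as deposited, *MYB13* was at 0.08 and 0.29 and *MYB30* at 0.14 and −0.10, with no call. The mock call of *MYB13* also ended without WT mock replicate 2 (0.99) and without *yucca* mock replicate 2 (0.96). On the quantile-normalized values all were called by limma at an adjusted p under 0.10 and B above 0, while 8.55% of all probe sets were called higher and 8.81% lower among mock arrays. Also called lower in both treatments were *MYB66* (−0.74 mock, −1.09 BR), *MYB48* (−0.73 and −1.02) and *MYB6* (−0.65 and −0.61). The mock calls of *MYB66*, *MYB48* and *MYB6* ended without WT mock replicate 2, and B of *MYB6* was near the threshold (0.716 mock, 0.29 BR). *MYB66* and *MYB48* were dim in *yucca* too. In all, 2 of the 9 other MYB genes were higher, 5 were lower and 2 did not pass the test in *yucca* mock seedlings. The tables had named the 9 for a response to BL or auxin, 8 of them for BL in WT. This comparison shares the WT mock arrays with that choice, and *yucca* overproduces auxin. The count therefore describes genes picked for a hormone response and not the MYB family. Without WT mock replicate 2, 1 was higher and 2 were lower, and without WT mock replicate 1, 3 were lower. Without *yucca* mock replicate 2, 1 was higher. Of the root markers, *PIP2;4* was also called lower in *yucca*, at −2.15 (mock) and −2.05 (BR), and the part of root tissue in these differences was not tested.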
